A study of Mus musculus with 4 samples.

Results

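Single nuclei of whole mouse brain were profiled for 28 genes of GABA and glycine signalling, taken from the 31053 genes of the count matrices. The genes were chosen by symbol and not by any measured value, although earlier results of these data were known. They cover GABA synthesis (Gad1, Gad2), vesicular loading and uptake (Slc32a1, Slc6a11, Slc6a13), breakdown (Abat), 12 GABA-A receptor subunits (Gabra2, Gabra3, Gabra4, Gabra5, Gabra6, Gabrb1, Gabrb2, Gabrg1, Gabrg3, Gabrd, Gabre, Gabrq), the GABA-B receptor (Gabbr1, Gabbr2), glycine receptor subunits (Glra1, Glra2, Glra3, Glrb), the postsynaptic organisers Gphn and Nlgn2, and the chloride transporters Slc12a5 and Slc12a2. Together they held 1888580 unique molecular identifiers (UMIs), which was 0.501% of those in the nuclei kept. The mice were untreated 2-month-old females of the C57/BL6 strain, either wild-type (WT) or heterozygous for the gene of the CSF-1 receptor (Csf1r+/-, here HET), and the study asked how reduced signalling by this receptor affects microglia and other brain cells before symptoms. Each genotype gave 2 libraries from separate mice. The Csf1r+/- mice are constitutive heterozygotes, so the reduced gene dose was not restricted to microglia. Myelin debris had been removed with beads, and only nuclear RNA was sequenced.

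GABA and glycine are the main fast inhibitory transmitters of the brain. GABA is made from glutamate by the decarboxylases GAD67 and GAD65, which are encoded by Gad1 and Gad2, is loaded into vesicles together with glycine by the transporter VGAT, encoded by Slc32a1, and is broken down by GABA transaminase, encoded by Abat. GABA-A and glycine receptors are pentameric chloride channels whose subunits differ between neuron types, whereas the GABA-B receptor is a G protein-coupled heterodimer. The chloride exporter KCC2, encoded by Slc12a5, keeps chloride low in mature neurons, and the importer NKCC1, encoded by Slc12a2, works in the opposite direction.

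Upstream sequence is shown for the 3 genes that define a neuron able to make and load GABA, which followed each other most closely over classes, and for Gabrg1, a subunit gene that stood out in a few neuron classes and in astrocyte-like nuclei. Each run is the 250 bases before the transcription start in RefSeq on GRCm38.p6, read 5′ to 3′ on the strand of the gene. Capitals mark matches to the motifs searched. The positions are chr2:70561879-70562128 on the plus strand for Gad1, chr2:22622077-22622326 on the plus strand for Gad2, chr2:158610508-158610757 on the plus strand for Slc32a1, and chr5:70842618-70842867 on the minus strand for Gabrg1.
Gad1: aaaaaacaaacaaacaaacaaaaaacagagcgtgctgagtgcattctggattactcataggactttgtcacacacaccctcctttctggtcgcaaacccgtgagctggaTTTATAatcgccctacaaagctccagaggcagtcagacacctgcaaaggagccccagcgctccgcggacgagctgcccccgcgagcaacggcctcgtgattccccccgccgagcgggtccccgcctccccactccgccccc
Gad2: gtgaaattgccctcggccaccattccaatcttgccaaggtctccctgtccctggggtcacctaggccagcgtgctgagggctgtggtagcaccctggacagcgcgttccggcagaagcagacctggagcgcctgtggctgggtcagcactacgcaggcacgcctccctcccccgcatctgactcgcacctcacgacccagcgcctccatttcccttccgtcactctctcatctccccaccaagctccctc
Slc32a1: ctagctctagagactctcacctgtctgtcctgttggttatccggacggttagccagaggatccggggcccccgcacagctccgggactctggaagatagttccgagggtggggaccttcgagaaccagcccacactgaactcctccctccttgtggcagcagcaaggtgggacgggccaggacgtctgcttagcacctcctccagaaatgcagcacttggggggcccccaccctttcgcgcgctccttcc
Gabrg1: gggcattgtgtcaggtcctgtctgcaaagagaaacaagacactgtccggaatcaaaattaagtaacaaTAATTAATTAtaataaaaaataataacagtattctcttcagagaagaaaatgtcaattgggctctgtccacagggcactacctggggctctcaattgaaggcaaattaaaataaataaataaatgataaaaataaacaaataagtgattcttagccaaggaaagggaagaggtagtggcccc
The motifs searched on both strands were TAATTA (a homeodomain core), CAGCTG (an E-box), TATAAA (the TATA box), GCGNGGGCG (the EGR1 motif) and TGACGTCA (the cAMP response element). The Gad1 window held TTTATA, which is TATAAA on the other strand, the Gabrg1 window held 2 overlapping TAATTA matches, and none of the 5 motifs was found in the Gad2 and Slc32a1 windows. Among all 32851 windows of that length, TAATTA was present in 4.84%, CAGCTG in 13.0%, TATAAA in 12.4%, GCGNGGGCG in 4.70% and TGACGTCA in 1.55%. A window was found for 24 of the 28 genes, with 31 windows in all, and these held the motifs in 1, 3, 5, 2 and 0 windows, respectively; Abat, Gabrd, Glra1 and Slc12a2 had none. The G and C content was 58% for Gad1, 64% for Gad2, 62.4% for Slc32a1 and 35.6% for Gabrg1, against 53.2% over all windows.

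The libraries held 9905 to 16415 nuclei and 89436507 to 112226479 UMIs, and 9589 to 16114 nuclei per library passed the limits of 500 to 50000 UMIs, more than 200 genes and less than 5% mitochondrial UMIs. The median nucleus had 4636 and 5490 UMIs in the WT libraries and 6656 and 7454 UMIs in the HET libraries. Pairs of libraries shared 33 to 68 cell barcodes, at most 0.465% of the smaller library. Clusters were formed without the genes described here and were named from marker lists, so that each name means a resemblance to that type. This gave 33 classes with at least 250 nuclei, of which 30 were neuronal and the others were oligodendrocyte-like, microglia-like and endothelial-like. Thalamic relay-like, dentate granule-like, subcortical GABA-like and other subcortical glutamatergic-like neurons met the marker rule for neither excitatory nor inhibitory neurons. They matched the markers of their type instead. Other neuronal classes that met neither rule and matched no type are called by their 2 leading genes, as are excitatory classes that matched no layer or region. Of the marker lists, 8 of 9 excitatory, 16 of 16 inhibitory, 9 of 9 oligodendrocyte, 10 of 10 microglial and 8 of 8 endothelial genes were at least 2-fold higher in their class than in the remaining nuclei. Clusters had been named from these same lists, so these counts are no independent check of the names. Csf1r in microglia-like nuclei was at 1084 and 1130 counts per 1000000 UMIs (CPM) in the WT libraries, against 731 and 698 CPM in the HET libraries. These values are after TMM scaling over the genes tested, unlike the class levels described next. The difference was -0.63 ± 0.21 (SE) on the log2 scale in the quasi-likelihood fit of edgeR, at an adjusted p of 0.221.

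Levels are given below as CPM of a class in each library, and as mean ± SD over the 4 libraries (n = 4) where a single value is printed. They describe clusters and carry no test. In nuclear RNA, reads from introns are counted, and the gene bodies ranged from 4.98 kb for Slc32a1 to 671 kb for Gabrg3, so levels were compared between classes for a gene and never between genes.

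Both GABA-synthesising enzymes were highest in classes carrying interneuron markers, but they were not ordered alike. Gad2 stood clear in Lamp5-like interneurons, a class that includes neurogliaform types, at 604 and 542 CPM in the WT libraries and 682 and 594 CPM in the HET libraries. All 4 libraries of that class were above every library of every other class, in which Gad2 reached at most 299 CPM. The next classes for Gad2 were striatal projection-like neurons at 266 ± 31.05 CPM, subcortical GABA-like neurons at 243 ± 31.6 CPM and Vip-like interneurons at 242 ± 18.8 CPM, and neighbours in this order overlapped. Gad1 was highest in the small inhibitory neurons marked by Pbx3 and Cpa6, at 619 and 441 CPM in the WT libraries and 578 and 559.7 CPM in the HET libraries. Lamp5-like neurons came next at 408 and 416 CPM in the WT libraries and 471 and 520.4 CPM in the HET libraries, so that the ranges of both classes overlapped. Below them, Vip-like neurons at 262 ± 46.2 CPM and Pvalb-like neurons at 253 ± 19.97 CPM overlapped each other and lay apart from striatal projection-like neurons at 152 ± 17.8 CPM.

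In most classes outside the GABAergic ones, Gad1 and Gad2 were low. The 17 cortical, hippocampal and other excitatory classes, with dentate granule-like neurons counted among them, had median levels of 4.45 CPM for Gad1 and 5.21 CPM for Gad2, and the lowest Gad1 level was 2.38 ± 1.80 CPM, in the excitatory class marked by Cobll1 and Rxfp1. Dentate granule-like neurons were the exception for Gad1. This gene was at 62.4 and 45.1 CPM in the WT libraries and 54.97 and 42.3 CPM in the HET libraries of that class, from 75 UMIs in all, whereas Gad2 in the same nuclei was at 1.64 and 10.03 CPM and 9.16 and 0 CPM, from 7 UMIs. The class marked by Gm45194 and Baiap3, which met neither rule, was at 90.1 ± 10.1 CPM for Gad1 and 209 ± 35.5 CPM for Gad2, and the class marked by Resp18 and Ndn, which met neither rule either, was at 103 ± 20.5 CPM for Gad1 and 236 ± 29.8 CPM for Gad2.

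The balance of the 2 enzymes set the Pbx3 and Cpa6 neurons apart from the other GABAergic classes. The ratio of Gad1 to Gad2 UMIs, which compares classes and not amounts of RNA, averaged 2.78 ± 0.47 (SD, n = 4) in the Pbx3 and Cpa6 neurons, 1.43 ± 0.28 in Pvalb-like neurons and 1.10 ± 0.29 in Vip-like neurons. The lowest library of the Pbx3 and Cpa6 neurons was at 2.15, and no library of the other GABAergic classes exceeded 1.74. Vip-like libraries were at 0.952 and 0.938 in WT and 1.53 and 0.974 in HET, so 1 library put their mean above 1. They overlapped Pvalb-like neurons. The mean was below 1 in the others, with 0.75 ± 0.09 in Lamp5-like, 0.64 ± 0.07 in Sst-like, 0.57 ± 0.03 in striatal projection-like and 0.56 ± 0.11 in subcortical GABA-like neurons. Neighbours among these 4 classes overlapped. In Pvalb-like neurons the ratio was 1.25 and 1.14 in WT and 1.59 and 1.74 in HET libraries. In Sst-like neurons it was 0.561 and 0.613 in WT and 0.675 and 0.709 in HET libraries. With 2 libraries against 2, the exact two-sided permutation test could not go below p = 0.333, so neither difference could pass 0.05. Over the 10 classes with enough UMIs of both genes the HET libraries were higher without overlap in 7 and lower without overlap in 1, but these classes came from the same 4 libraries and are not independent. How often ratios over all pairs of genes lay without overlap was not computed, so this count has no background beside it.

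**Figure D1:**
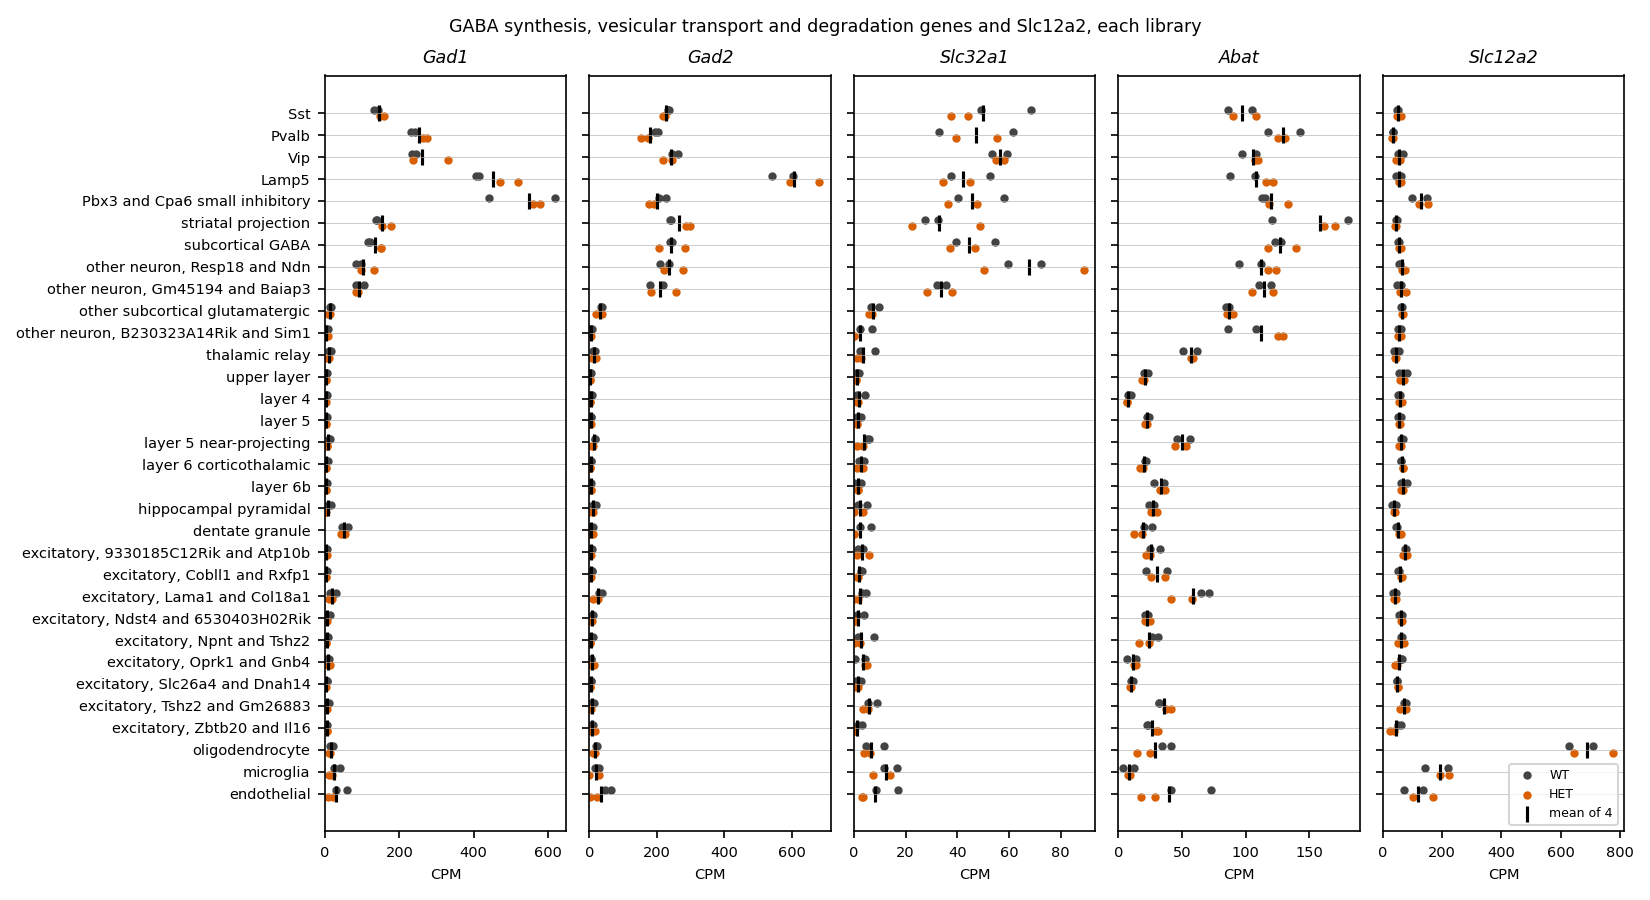
Level of 5 genes in each library and in 32 of the 33 classes, in CPM on a linear axis, with grey points for WT and orange points for HET libraries and a black bar for the mean of the 4 libraries. Class names stand without the suffix -like. Gad2 in the Lamp5 class lies above every point of the other classes, at 542 to 682 CPM, and Slc12a2 does so in oligodendrocytes, at 626 to 776 CPM.

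The vesicular transporter and the degrading enzyme followed the synthesising enzymes in part. Slc32a1 was highest in the class marked by Resp18 and Ndn, at 72.5 and 59.6 CPM in the WT libraries and 89.00 and 50.3 CPM in the HET libraries. Vip-like neurons at 56.4 ± 2.63 CPM, Sst-like neurons at 49.9 ± 13.3 CPM and Pvalb-like neurons at 47.4 ± 13.3 CPM overlapped it, so no single class led. Over the 33 classes, log2(CPM + 1) of Slc32a1 correlated with Gad2 at r = 0.95, and Gad1 with Gad2 at r = 0.94. These correlations are descriptions over 33 classes drawn from the same 4 libraries. Abat followed Gad2 less closely, with r = 0.80. It was highest in striatal projection-like neurons, at 120.4 and 181 CPM in the WT libraries and 162 and 170.3 CPM in the HET libraries, but it was also at 112 ± 19.6 CPM in the class marked by B230323A14Rik and Sim1, called the Sim1 class below, and at 57.1 ± 4.55 CPM in thalamic relay-like neurons. The lowest neuronal level of Abat was in layer 4-like neurons, at 7.92 ± 1.46 CPM, which is 19.99-fold below the highest.

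The plasma membrane transporters GAT3 and GAT2, encoded by Slc6a11 and Slc6a13, were low in all large classes. Slc6a11 did not exceed 34.5 ± 5.53 CPM, its level in layer 5 near-projecting-like neurons. It was far higher in 44 astrocyte-like nuclei, at 580 CPM with an exact Poisson 95% interval of 442 to 748 CPM from 59 UMIs pooled over the libraries. Astrocytes are the known site of GAT3. Intervals here cover counting error only, since the nuclei were too few to compare libraries. Slc6a13 had 12 UMIs in endothelial-like nuclei, at 7.58 ± 4.69 CPM. Of these, 11 lay in a subcluster of 69 nuclei whose leading genes included the mural genes Vtn and Rgs5, at 40.9 CPM with an interval of 20.4 to 73.1 CPM, and 1 lay in the other 563 nuclei, at 0.610 CPM with an interval of 0.0155 to 3.40 CPM. In 75 mural-like nuclei 12 UMIs gave 77.7 CPM with an interval of 40.1 to 136 CPM, and in 13 fibroblast-like nuclei 2 UMIs gave 55.5 CPM with an interval of 6.72 to 200.4 CPM. The mural-like nuclei also held the fibroblast gene Col1a2 at 492 CPM, against 416 CPM in the fibroblast-like nuclei. The endothelial gene Cldn5 was at 2563 CPM in the 69 nuclei, 1490 CPM in the other 563 and 1133 CPM in the mural-like nuclei. Rgs5 was at 3651, 1057 and 2719 CPM in the same order. Neither small group was thus purely mural by these genes, and the cell type that held Slc6a13 was not resolved. Over all nuclei Slc6a13 was at 0.284 CPM.

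The GABA-A alpha subunits, which set much of the pharmacology of the receptor, each had their own leading class. Gabra2 was highest in hippocampal pyramidal-like neurons, at 956 and 783 CPM in the WT libraries and 720.0 and 929 CPM in the HET libraries, and overlapped dentate granule-like neurons at 843 ± 89.1 CPM. Its lowest level was in layer 6b-like neurons, at 71.2 ± 12.5 CPM, which lay 11.9-fold below. Gabra3 led in the class marked by Gm45194 and Baiap3, at 196 and 176 CPM in the WT libraries and 220.0 and 202 CPM in the HET libraries. The lowest of these values was above the highest value in any other class, which was 171 CPM.

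Gabra4 was clearest of the alpha subunits. It forms extrasynaptic receptors together with the delta subunit, and it was at 449 and 539.5 CPM in the WT libraries and 571 and 509 CPM in the HET libraries of thalamic relay-like neurons. No library of another class exceeded 339 CPM, which was reached in dentate granule-like neurons. Gabrd, which encodes the delta subunit, was at 51.2 ± 5.21 CPM in thalamic relay-like neurons, at 51.4 ± 4.88 CPM in striatal projection-like neurons and highest in Pvalb-like neurons, at 43.6 and 60.2 CPM in the WT libraries and 82.5 and 66.8 CPM in the HET libraries, and the 3 classes overlapped. Gabra4 and Gabrd were the nearest members to each other over the 33 classes, with r = 0.77. Gabra5, known from hippocampal extrasynaptic receptors, led in the Pbx3 and Cpa6 neurons at 284 and 244 CPM in the WT libraries and 360.2 and 371 CPM in the HET libraries. Hippocampal pyramidal-like neurons were at 179.9 ± 38.1 CPM, and the highest value in any other class was 233 CPM. Gabra6, known from cerebellar granule cells, did not exceed 1.23 CPM in any class.

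The beta subunits were found in every neuronal class. Gabrb2 was at 1193 and 1165 CPM in the WT libraries and 1321 and 1255 CPM in the HET libraries of Lamp5-like neurons, clear of the highest value elsewhere, which was 762 CPM. Gabrb1 led by a small margin in the excitatory class marked by Cobll1 and Rxfp1, at 1837 ± 168 CPM, and overlapped the Sim1 class at 1735 ± 148 CPM. Over the 30 neuronal classes the highest level was 5.53-fold the lowest for Gabrb2 and 6.42-fold for Gabrb1.

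The gamma subunits were less evenly spread. Gabrg3 was highest in Lamp5-like neurons, at 3320.5 and 2741 CPM in the WT libraries and 3242 and 2877 CPM in the HET libraries, followed by striatal projection-like neurons at 2737 ± 231 CPM, Pvalb-like neurons at 2488 ± 201 CPM and layer 5 near-projecting-like neurons at 2324 ± 108 CPM. These 4 classes lay above all others, the next being at 1356 ± 161 CPM. Layer 4-like neurons were at 164 ± 28.4 CPM. Gabrg1 was at 156 and 114 CPM in the WT libraries and 171 and 142 CPM in the HET libraries of the Gm45194 and Baiap3 class. It was at 83.6 ± 15.1 CPM in the Resp18 and Ndn class and down to 1.11 ± 0.217 CPM in the excitatory class marked by Cobll1 and Rxfp1. The median over the 30 neuronal classes was 10.1 CPM. In the 44 astrocyte-like nuclei Gabrg1 was at 138 CPM, with an interval of 75.3 to 231 CPM from 14 UMIs, and Gabrb1 was at 2292 CPM, with an interval of 2007 to 2605 CPM.

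The epsilon and theta subunits, known from hypothalamic and brainstem nuclei, were highest in the Gm45194 and Baiap3 class. Gabre was at 10.01 and 9.85 CPM in the WT libraries and 9.05 and 12.4 CPM in the HET libraries there, from 51 UMIs, and at no more than 1.65 CPM on average in any other class. Gabrq was at 16.1 and 15.9 CPM and 16.3 and 12.4 CPM, against 4.51 ± 0.863 CPM in the Resp18 and Ndn class. They correlated over the classes at r = 0.83, and both are X-linked neighbours of Gabra3.

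Genomic neighbours did not share a class pattern as a rule. Gabra4 and Gabrb1, whose annotated starts overlap by 0.195 kb on opposite strands of chromosome 5, had r = 0.51. Gabrg1 and Gabra2, 115 kb apart on chromosome 5, had r = 0.42. Gabrg3 and Gabra5, 20.5 kb apart on chromosome 7, had r = -0.0012, and Gabra6 and Gabrb2, 98.7 kb apart on chromosome 11, had r = 0.10, although Gabra6 was close to 0 throughout. On chromosome X, Gabra3 had r = 0.40 with Gabre and 0.42 with Gabrq. The 3 genes that followed each other most closely, Gad1, Gad2 and Slc32a1, lie on chromosome 2 but 47859 kb and more from each other.

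The subunits of the obligate GABA-B heterodimer were distributed differently. Gabbr1 was among the most even members, with 62.3 to 143 CPM over the neuronal classes. It was also at 145 and 153 CPM in the WT libraries and 135 and 124 CPM in the HET libraries of oligodendrocyte-like nuclei. These values overlapped those of striatal projection-like neurons, at 143 ± 12.4 CPM. Gabbr2 was at 847 ± 81.96 CPM in Lamp5-like neurons and 727 ± 69.4 CPM in thalamic relay-like neurons but only at 109 ± 14.6 CPM in striatal projection-like neurons and 88.7 ± 27.9 CPM in oligodendrocyte-like nuclei. The correlation between both genes over the 33 classes was -0.34.

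Each glycine receptor alpha subunit had its own order of classes. Glra1, the adult subunit of spinal cord and brainstem, was at 69.2 and 39.3 CPM in the WT libraries and 58.9 and 76.6 CPM in the HET libraries of subcortical GABA-like neurons. It was at 47.8 ± 14.2 CPM in the class marked by Lama1 and Col18a1 and at 47.03 ± 7.70 CPM in other subcortical glutamatergic-like neurons, and these ranges overlapped. It exceeded 10 CPM in 7 of the 30 neuronal classes, and in dentate granule-like neurons no UMI was counted. Glra3 was at 138 ± 5.51 CPM in other subcortical glutamatergic-like neurons and at 102 ± 17.9 CPM in the Resp18 and Ndn class, and no class lay above the former without overlap. Glra2, known from immature neurons, was instead highest in layer 6b-like neurons, at 177 and 175 CPM in the WT libraries and 149.9 and 171 CPM in the HET libraries, and in Vip-like neurons, at 171 and 135 CPM and 175 and 145 CPM. Both classes lay above layer 6 corticothalamic-like neurons at 100.1 ± 22.5 CPM. In upper layer-like neurons Glra2 was at 3.44 ± 1.53 CPM. Glrb, the beta subunit that binds gephyrin, was broader, ranging from 79.3 to 267 CPM over the neuronal classes, with the highest level in the Lama1 and Col18a1 class.

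The postsynaptic organisers and the chloride exporter were, with Gabbr1, the least variable members over neurons. The highest class was 2.28-fold the lowest for Nlgn2, which encodes neuroligin 2 of inhibitory synapses, 2.29-fold for Gabbr1, 2.49-fold for Slc12a5 and 2.82-fold for Gphn, which encodes gephyrin. The same quotient was 231 for Gad1 and 267 for Gad2. Gphn led clearly in the Sim1 class, at 1752 and 1599.5 CPM in the WT libraries and 1510.4 and 1870.5 CPM in the HET libraries, and the Pbx3 and Cpa6 neurons came next at 1392 ± 93.5 CPM without overlap on either side. Over the 33 classes Gphn was nearer to Abat, with r = 0.72, than to Nlgn2, with r = 0.22. Gephyrin also takes part in the synthesis of the molybdenum cofactor outside synapses, and Gphn was at 1064 ± 72.01 CPM in oligodendrocyte-like nuclei.

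The chloride transporters had r = -0.66 with each other over the 33 classes. These include the 3 glial and endothelial classes, with Slc12a5 at 35.8 to 62.0 CPM and Slc12a2 at 120 to 689 CPM. No correlation was computed over neurons alone. Slc12a5 was between 71.2 and 177 CPM in neurons and at 35.8 ± 11.6 CPM in oligodendrocyte-like nuclei. Slc12a2 was at 626 and 709.8 CPM in the WT libraries and 776 and 645 CPM in the HET libraries of oligodendrocyte-like nuclei, where it was 7.95 to 10.5 times its level in the whole library. Microglia-like nuclei followed at 194 ± 37.5 CPM, and neurons ranged from 33.8 CPM in Pvalb-like neurons to 131 CPM in the Pbx3 and Cpa6 neurons. The latter were the neuronal class with the lowest UMI ratio of Slc12a5 to Slc12a2, at 0.69 ± 0.14 (SD, n = 4), against 3.12 ± 0.47 in Pvalb-like neurons. In 122 nuclei of the oligodendrocyte lineage that carried precursor markers Slc12a2 was at 202 CPM, with a Poisson interval of 155 to 258 CPM, and 86 of these nuclei came from the second WT library. They held 98 nuclei led by Pdgfra, a precursor marker, where Slc12a2 was at 160 CPM with an interval of 114 to 217 CPM. The other 24, led by Bcas1, matched more oligodendrocyte than precursor markers and had Slc12a2 at 359 CPM with an interval of 230.0 to 534 CPM.

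**Figure D2:**
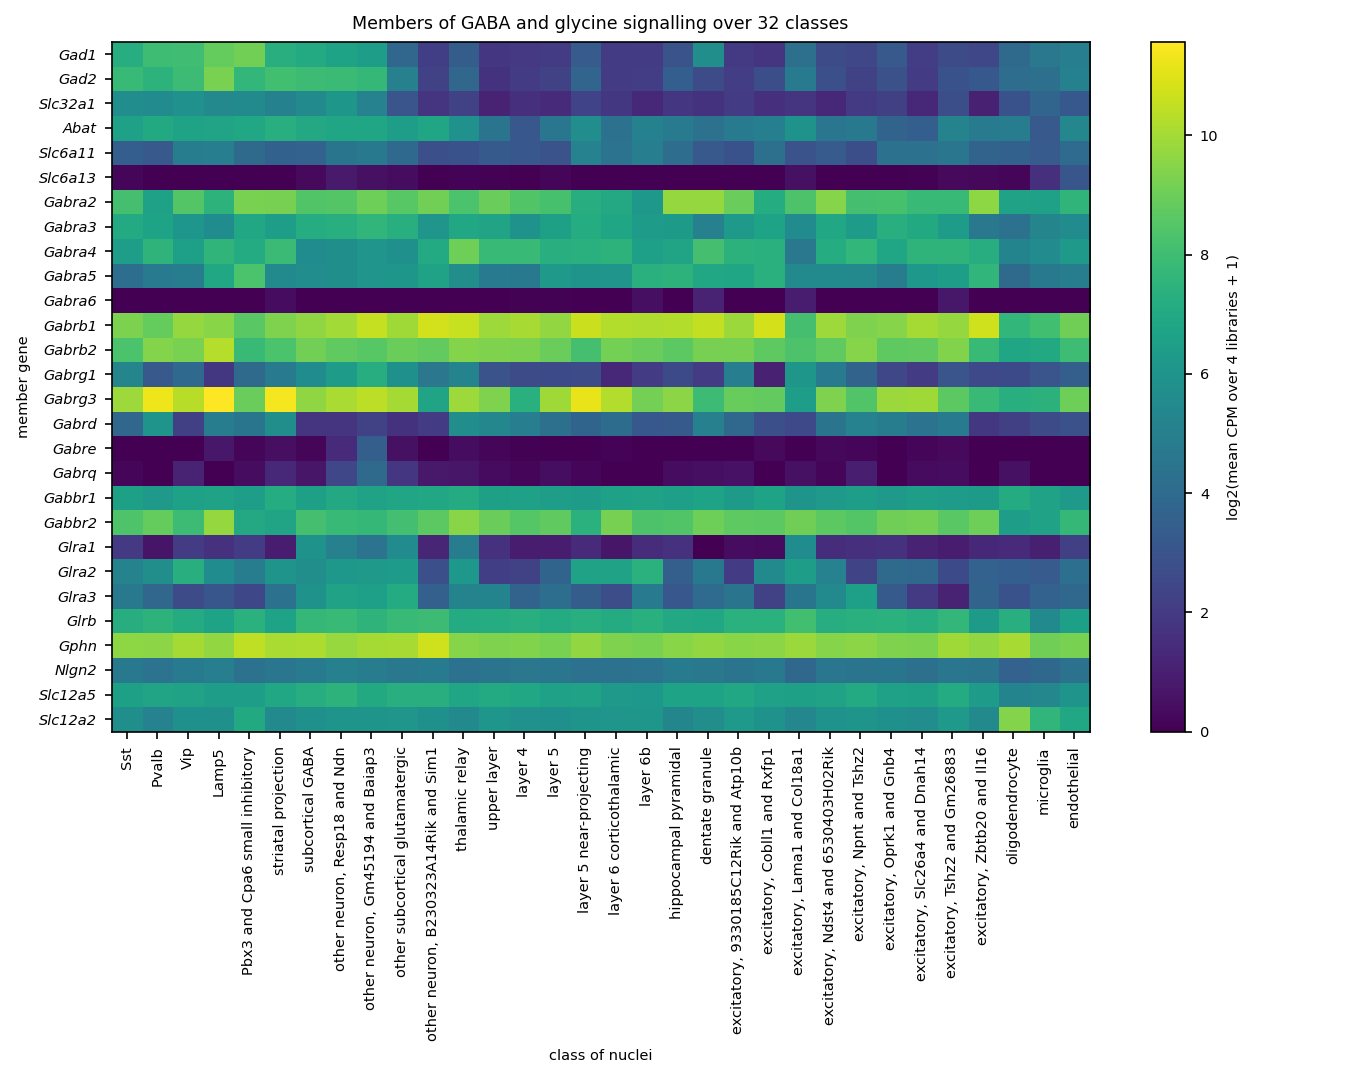
Mean level over the 4 libraries of each member (rows) in 32 of the 33 classes (columns), as log2(CPM + 1) on the colour scale. Class names stand without the suffix -like. The synthesis genes Gad1 and Gad2 and the vesicular transporter gene Slc32a1 are bright in the GABAergic classes and in those marked by Gm45194 and by Resp18. Gabre and Gabrq are brightest in the Gm45194 and Baiap3 class, and Nlgn2, Gabbr1, Slc12a5 and Gphn vary least over neurons.

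Neuronal RNA was also found in the glial and endothelial classes, and a list of 12 neuronal transcripts was read in these nuclei as a measure of it. Its median level, relative to the whole library, was 0.315 and 0.279 in WT and 0.131 and 0.204 in HET libraries of oligodendrocyte-like nuclei. The values were 0.399, 0.430, 0.154 and 0.294 in microglia-like nuclei and 0.605, 0.667, 0.569 and 0.343 in endothelial-like nuclei, in the same order of libraries. In oligodendrocyte-like nuclei the quotient of class to library was 1.27 to 1.499 for Gphn, 1.33 to 1.70 for Gabbr1 and 0.890 to 1.14 for Glrb, all above the median of the list in all 4 libraries. Of the 23 members with at least 10 UMIs there, 11 were above that median in all 4 libraries, the others being Gad1, Gad2, Slc32a1, Slc6a11, Abat, Nlgn2, Slc12a5 and Slc12a2, and Gphn and Slc12a2 were above all 12 transcripts. The receptor subunits Gabrb1, Gabrb2, Gabrg3 and Gabra4 had quotients between 0.105 and 0.300 there, close to the list. In microglia-like nuclei Slc12a2, at 1.59 to 3.29, was above all 12 transcripts in all 4 libraries, and Gphn, at 0.634 to 0.728, was above their median in all 4. So were Gabbr1, Gad1 and Slc32a1, which made 5 of the 18 members with at least 10 UMIs there. Gad1 rested on 10 and 6 UMIs in the WT and 3 and 4 UMIs in the HET libraries. Slc32a1 rested on 3 and 4 UMIs in the WT and 2 and 3 UMIs in the HET libraries. Gabrg3 was at 0.317, 0.236, 0.0497 and 0.173 and lay below the median in all 4 libraries. In endothelial-like nuclei 3 of 24 members, Gphn, Slc12a2 and Slc6a13, were above the median in all 4. The share of all genes above the median was not computed, so these counts have no background beside them. The list includes transcripts of excitatory neurons, such as Slc17a7, and was not matched to RNA of GABAergic neurons.

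**Figure D3:**
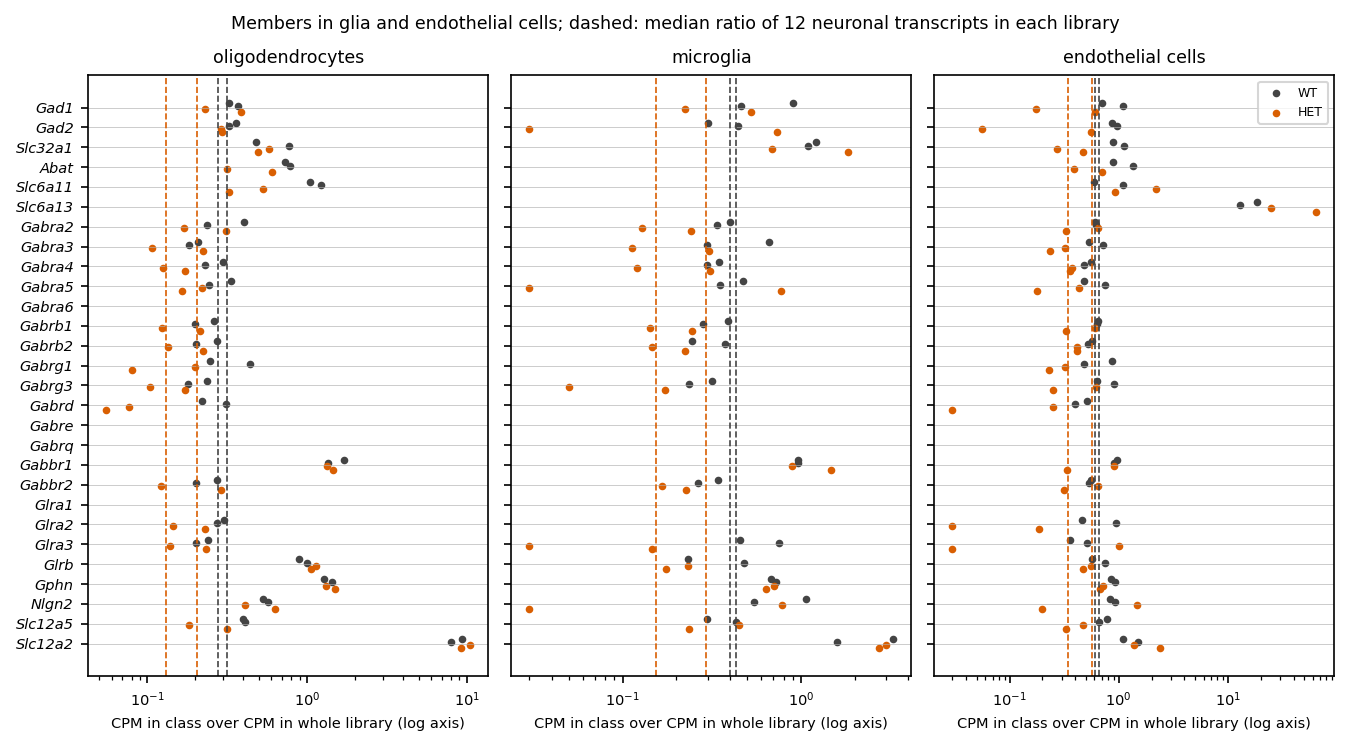
Level of each member in a glial or endothelial class divided by its level in the whole library, on a log axis, with grey points for WT and orange points for HET libraries. Members with at least 10 UMIs over the 4 libraries are drawn, quotients under 0.03, 0 included, are drawn at 0.03, and dashed lines give the median quotient of the 12 neuronal transcripts in each library. Slc12a2 in oligodendrocytes stands at 7.95 to 10.5, Slc6a13, from 12 UMIs, stands highest in endothelial cells, and most receptor subunits lie near the dashed lines.

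The genotypes were then compared on UMIs summed per library and class with edgeR's quasi-likelihood test, and counted at the study's threshold of an unadjusted p under 0.01 and at an adjusted p under 0.05. Values in this comparison are CPM after TMM scaling, and p-values were adjusted over all genes tested in the class. Thalamic relay-like, dentate granule-like and other subcortical glutamatergic-like neurons were not counted as excitatory here. Subcortical GABA-like neurons were not counted as inhibitory, and classes that met neither rule were in neither group. In excitatory neurons 18 members were tested and 0 passed either threshold, where 0.287% and 0% of all 7653 genes did. An unadjusted p under 0.05 was reached by 1 member, and the share of all genes at that level was not computed. The likelihood-ratio test and DESeq2 called 0 as well. Of the 18, 7 were higher and 11 lower in HET, with a median log2 fold change of -0.01. The largest difference was that of Glra2, at 42.4 and 33.03 CPM in the WT libraries and 20.1 and 29.1 CPM in the HET libraries, a log2 fold change of -0.62 ± 0.22 (SE; adjusted p = 0.9999, edgeR). The layer 6b-like class, where Glra2 was highest, had 269 and 186 nuclei in the WT and 100 and 133 in the HET libraries. Layer 6 corticothalamic-like neurons, a larger class that also held Glra2, had 1312 and 1038 nuclei in the WT and 627 and 1049 in the HET libraries. Excitatory nuclei numbered 8194 and 6495 in the WT and 5056 and 6682 in the HET libraries. The part of this uneven make-up in the Glra2 difference was not tested. Gabra5 had -0.20 ± 0.12 and Gabrd 0.14 ± 0.12, both also without overlap between the genotypes. The share of all genes without overlap was not computed, so this has no background beside it.

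In inhibitory neurons 20 members were tested and 0 passed either threshold, where 0.315% and 0% of all 6342 genes did. None was at an unadjusted p under 0.05, and the likelihood-ratio test and DESeq2 called 0 as well. Gabra5 had the largest difference, at 79.6 and 72.6 CPM in the WT libraries and 118 and 83.4 CPM in the HET libraries, a log2 fold change of 0.41 ± 0.17 (SE; adjusted p = 0.9996, edgeR). The Pbx3 and Cpa6 class, where Gabra5 led, had 424 and 563 nuclei in the WT and 472 and 247 in the HET libraries. Inhibitory nuclei numbered 2071 and 2327 in the WT and 1405 and 1276 in the HET libraries. The part of this uneven make-up in the difference was not tested. Gabrd had 0.26 ± 0.17 and Glra2 had -0.25 ± 0.17. The enzymes of GABA synthesis did not pass. Gad1 was at 288 and 257 CPM in the WT libraries and 331 and 292 CPM in the HET libraries, a log2 fold change of 0.19 ± 0.11. Gad2 was at 279 and 263 CPM in the WT libraries and 253 and 249 CPM in the HET libraries, a log2 fold change of -0.11 ± 0.09. Neither gene overlapped between the genotypes, and their differences had opposite signs. How many of all genes lay without overlap was not computed. Slc32a1, with -0.02 ± 0.14, and Abat, with -0.00 ± 0.09, differed by less than their standard errors.

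Whether the genotype difference itself depended on the kind of neuron was tested as an interaction for 17 members among 6131 genes. None passed at an adjusted p under 0.05, where 0% of all genes did, and 1 had an unadjusted p under 0.01, where 1.06% of all genes did. This was Glra2, whose log2 fold change was 0.37 higher in inhibitory than in excitatory neurons (adjusted p = 0.778, edgeR). For Gabra5, which was lower in HET in excitatory and higher in inhibitory neurons, the difference was 0.60 (adjusted p = 0.9999, edgeR).

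In oligodendrocyte-like nuclei 9 members were tested and 0 passed either threshold, where 0.142% and 0% of all 3510 genes did. None was at an unadjusted p under 0.05, and the likelihood-ratio test and DESeq2 called 0 as well. The 3 largest differences were -0.70 ± 0.31 for Gabrg3, -0.52 ± 0.41 for Gabra2 and -0.52 ± 0.34 for Gabrb1 on the log2 scale. The neuronal transcripts were lower in HET in 6 of 6 tested here, with a median of -0.59, and their part in these values was not tested. Slc12a2, at 752 and 828 CPM in the WT libraries and 916 and 729 CPM in the HET libraries, differed by 0.06 ± 0.20 on the log2 scale.

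In microglia-like nuclei 8 members were tested and 2 passed the unadjusted threshold, both lower in HET, where 4.74% of all 3040 genes passed. Of the 144 genes that passed, only 3 were higher in HET, so the direction was that of most genes called. None passed after adjustment, where 0.0658% of all genes did. At an unadjusted p under 0.05 there were 4 members, and the share of all genes at that level was not computed. Gabrg3 was at 399.9 and 262 CPM in the WT libraries and 51.5 and 188 CPM in the HET libraries, a log2 fold change of -1.53 ± 0.43 (SE; adjusted p = 0.162, edgeR). Gabra2 was at 199.95 and 153 CPM in the WT libraries and 51.5 and 106 CPM in the HET libraries, a log2 fold change of -1.20 ± 0.39 (adjusted p = 0.200, edgeR). The third in size was Gabrb1, with -0.94 ± 0.32 (adjusted p = 0.221, edgeR). All 3 encode GABA-A receptor subunits, and they rested on 11 to 105 UMIs per library. The 12 neuronal transcripts moved with them, since 7 of 8 tested were lower in HET and 4 passed the unadjusted threshold, with a median of -0.81. Their part in the result was not tested. The first HET library, which had the lowest neuronal quotient of 0.154, decided the count, which was 0 without it, 4 without the second HET library, 1 without the first WT library and 3 without the second. DESeq2 called 1 member and the likelihood-ratio test 3, while 0 passed at clustering resolution 0.5, with the members used in clustering or with the replicate block. After free RNA was subtracted 0 passed as well, but that setting could not test these members. Gabrg3 and Gabrb1 lay below the median of the neuronal list in all 4 libraries and were set to 0. Gabra2 lay above it in 1 library only, at 0.3992 against 0.3985. Of the members above the median of the neuronal list in all 4 libraries, 3 were tested here, and Slc12a2 had 0.11 ± 0.28, Gabbr1 0.09 ± 0.34 and Gphn -0.19 ± 0.21.

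In endothelial-like nuclei 14 members were tested and 3 passed the unadjusted threshold, all lower in HET, where 3.9% of all 5592 genes passed. Of the 218 genes that passed, 57 were higher in HET, so most genes called were lower. None passed after adjustment, where 0.751% of all genes did. At an unadjusted p under 0.05 there were 6 members, and the share of all genes at that level was not computed. Gad2 was at 52.5 and 74.7 CPM in the WT libraries and 3.34 and 23.1 CPM in the HET libraries, from 37, 30, 1 and 6 UMIs, a log2 fold change of -2.27 ± 0.54 (SE; adjusted p = 0.0562, edgeR). Abat had -1.33 ± 0.44 (adjusted p = 0.226, edgeR) and Gabra3 had -1.21 ± 0.37 (adjusted p = 0.185, edgeR). The level of Gad2 in this class relative to the whole library was 0.862, 0.973, 0.0557 and 0.562. Nuclei with high doublet scores made up 19.1% of the class. Without them 9 members could be tested and 0 passed. In the whole class the neuronal transcripts were lower in HET in 9 of 10 tested, with a median of -0.51. Their part in the result was not tested. The count was 6 without the first HET library and 1 without the second HET or the second WT library, and DESeq2 called 1 member.

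**Figure D4:**
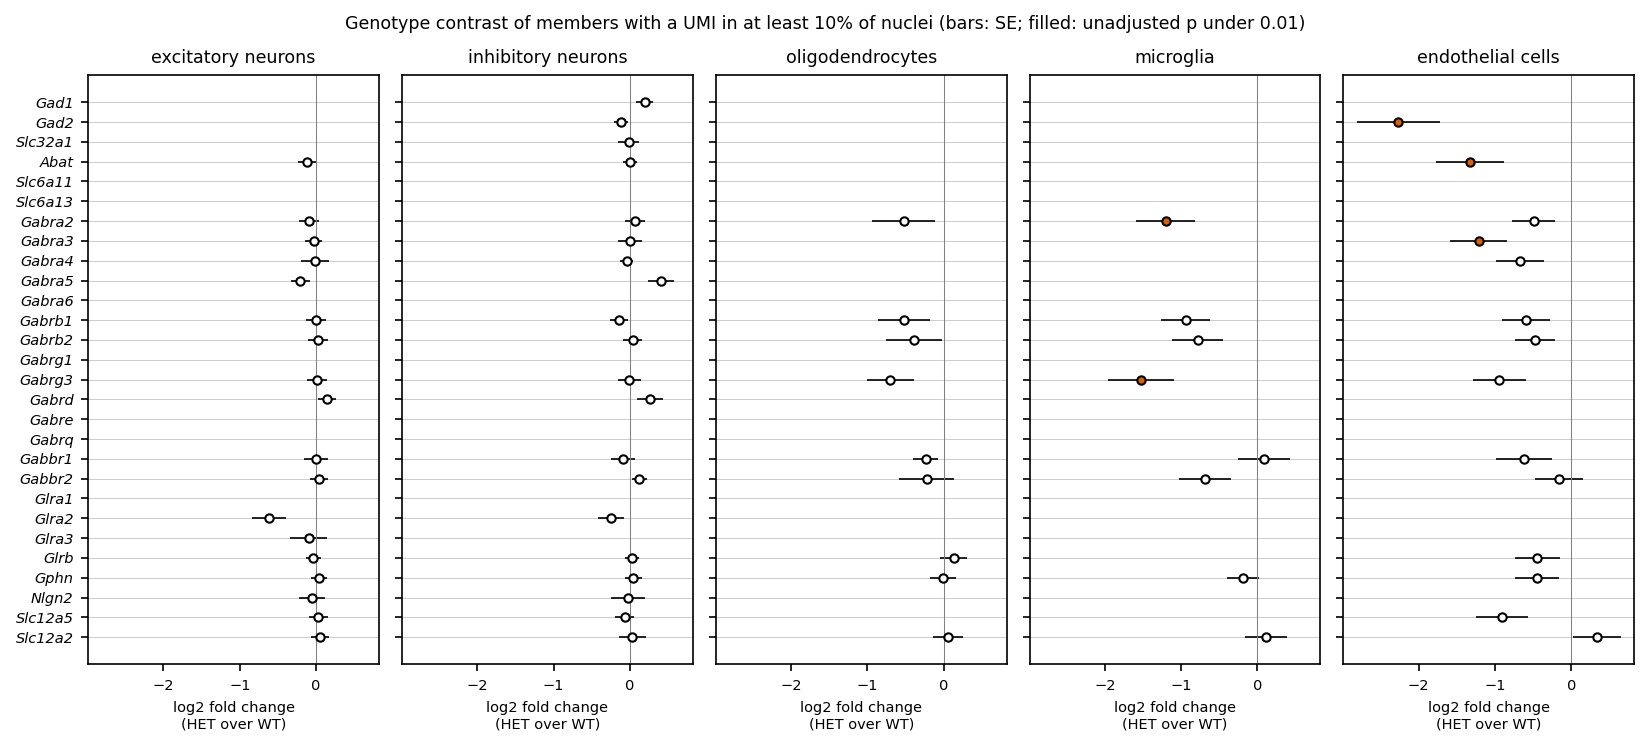
Log2 fold change of HET against WT with its standard error for each member tested in the 5 broad classes, from edgeR's quasi-likelihood fit on sums per library (2 WT and 2 HET). Filled points had an unadjusted p under 0.01. Members in excitatory and inhibitory neurons lie between -0.62 and 0.41. In microglia and endothelial cells the GABA-A receptor subunit genes lie below 0, down to -1.53 for Gabrg3 in microglia. The lowest point is the synthesis gene Gad2 in endothelial cells, at -2.27.

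Within the 30 neuron subtypes, each fitted alone, 555 tests of members were made and 7 passed the unadjusted threshold. This was 1.26% of the tests, against 0.569% of all 219481 tests. None passed after adjustment, where 0.0146% of all tests did. Of the 555 tests, 24 were at an unadjusted p under 0.05, and the share of all tests at that level was not computed. Glra3 in Sst-like neurons was at 35.3 and 32.8 CPM in the WT libraries and 17.4 and 17.3 CPM in the HET libraries, a log2 fold change of -0.97 ± 0.27 (SE; adjusted p = 0.965, edgeR). Gabrg3 in the Sim1 class had -1.04 ± 0.30, Glra2 in the class marked by Slc26a4 and Dnah14 had -0.90 ± 0.26 and Gabra2 in Pvalb-like neurons had -0.58 ± 0.18. Gabra3 was higher in HET in striatal projection-like neurons, by 0.81 ± 0.24, at 63.6 and 67.3 CPM in the WT libraries and 91.4 and 140.4 CPM in the HET libraries. Gabra4 passed in 2 subtypes, with -0.67 ± 0.19 in the Resp18 and Ndn class and -0.45 ± 0.13 in other subcortical glutamatergic-like neurons. In thalamic relay-like neurons, where it led, Gabra4 did not pass.

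The direction of a member over subtypes is described with the reserve that the same 4 libraries enter each subtype. Gabra4 was lower in HET in 24 of 30 subtypes with a median log2 fold change of -0.07, Gabbr2 and Gphn were each higher in 22 of 30 with a median of 0.03, and Gad1 was higher in 8 of the 11 subtypes in which it could be tested, with a median of 0.18. Glra1 was higher in 7 of 7, with a median of 0.30, and none of these 7 passed the threshold. Gabra6, Gabre, Gabrq and Slc6a13 passed the filter on detection in no subtype.

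The other genes of GABA and glycine transmission, a list of 24 that held 0.238% of UMIs, were read in the same fits. In excitatory neurons 0 of 14 tested passed the unadjusted threshold, in inhibitory neurons 0 of 13, in oligodendrocyte-like nuclei 0 of 4 and in microglia-like nuclei 0 of 5. In endothelial-like nuclei 2 of 11 passed, both lower in HET, where 3.9% of all genes passed. Of all 218 genes that passed there, 57 were higher in HET. Kctd8, an auxiliary subunit of GABA-B receptors, was 1 of the 2 pathway genes, with a log2 fold change of -1.26 ± 0.41 (adjusted p = 0.208, edgeR).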

How the data were processed

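Nuclei from 2 WT and 2 Csf1r+/- mouse brains were sequenced with Chromium 3′ v3.1 chemistry. The authors deposited UMI counts per gene and nucleus for each library, made with Cell Ranger 5.0.0 on mm10, per the labels and the study's methods, and these counts were used without further normalization by the authors. UMIs are molecule counts, so intervals cover counting error only. No column of another sample was present, and further libraries of the study were not analysed here. A nucleus was kept if it had 500 to 50000 UMIs, over 200 genes and under 5% mitochondrial UMIs, which left 88097109 to 111488169 UMIs per library.

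Nuclei of all libraries were clustered together with scanpy 1.11.5 (3000 variable genes without the members, the pathway genes and mitochondrial, ribosomal protein and sex-linked genes, chosen by library and with no batch correction, 30 components, 20 neighbours, Leiden resolution 1). Clusters were named from marker lists holding no member, and the naming thresholds were set after the clusters had been seen. Clusters with over 50% of nuclei with high Scrublet scores, with UMIs under 1/3 of their library's median and no marker among the leading genes, or with over 80% of nuclei from 1 library stayed unnamed. In named clusters, nuclei with high Scrublet scores were kept, and removing them was an alternative. The 28 members and all lists were chosen with earlier results of these data known.

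UMIs of each class were added up within a library and tested with edgeR 4.0.16 (quasi-likelihood, TMM, two-sided, Benjamini-Hochberg over all genes tested) in R 4.3.3, for genes detected in 10% or more of the nuclei of WT or HET and with 10 or more counts. The study used a likelihood-ratio test at an unadjusted p of 0.01, which was run as an alternative, as was DESeq2 1.42.0. Classes are the same 4 libraries seen again. On simulated counts for the comparison in excitatory neurons (7653 genes), 100% of 2-fold changes had an unadjusted p under 0.01, as did 0.859% of unchanged genes. For microglia (3040 genes) these shares were 73% and 1.09%, and 97% of 4-fold changes were recovered. The simulation gave every gene the same fixed spread between libraries, which was not estimated from these data. The shares recovered need not hold for genes with a larger spread. Every member was described. In each comparison, members at an unadjusted p under 0.01 and the 3 largest changes were named, and pathway genes at that threshold, except 1 pathway gene and 1 class of neurons that are not reported here. Other alternatives were RLE and plain library scaling, no detection filter, at least 1000 UMIs, resolution 0.5, clustering with the members, subtraction of free RNA, and leaving out each library. Promoter windows are from RefSeq on GRCm38.p6 and gene coordinates from GENCODE on GRCm38.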

Additional observations from a re-analysis of the deposited data

How the results depend on the processing

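The count of members with a clear leading class, 9 of 28, ranged from 7 at resolution 0.5 to 12, and the leading class was the same for 24 to 28 members, except at resolution 0.5, where 25 classes with other names left 10. Leaving out 1 library gave 9 to 12 such members and the following ranges for members past the unadjusted threshold. The range was 0 to 0 in excitatory neurons, 0 to 1 in inhibitory neurons (1 without the second HET library), 0 to 0 in oligodendrocytes, 0 to 4 in microglia, 1 to 6 in endothelial cells and 3 to 11 over subtypes. Over subtypes the 7 calls became 11 without the second WT library, 3 without the first HET library and 4 without the second HET library. Without the detection filter the counts were 1 in excitatory neurons, 1 in oligodendrocytes, 5 in endothelial cells and 12 over subtypes. Without nuclei of high Scrublet scores they were 3 in oligodendrocytes, 0 in endothelial cells and 4 over subtypes. The likelihood-ratio test gave 5 in endothelial cells, DESeq2 gave 1 in microglia and 1 in endothelial cells, and library totals alone gave 1 in microglia. Resolution 0.5 and clustering with the members each gave 0 in microglia. After free RNA was subtracted, 0 passed in microglia, where 3 could be tested, and 0 in endothelial cells, where 11 could be tested, and Gabra2 in oligodendrocytes turned from -0.52 to 0.37 on the log2 scale. The cause of these changes was not tested, apart from the smaller number of genes tested. In microglia the subtraction set Gabrg3 and Gabrb1 to 0 in every library, so it could not test them. Subtypes were not refitted with DESeq2, other clusterings or 1000 UMIs. With 2 libraries a group, a 2-fold change in microglia was recovered in 73% of simulated cases. That share holds for the fixed spread of the simulation, and recovery at the spread of these libraries was not tested.

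The replicate numbers are shared by both genotypes but mark no common litter, batch or day in the labels. With the replicate block the counts were 0 in excitatory neurons, 0 in inhibitory neurons, 0 in oligodendrocytes, 0 in microglia, 4 in endothelial cells and 8 over subtypes. Deviations of libraries with the same number correlated at -0.077, -0.014, -0.377, -0.179 and -0.057 in excitatory neurons, inhibitory neurons, oligodendrocytes, microglia and endothelial cells, and with the crossed pairing, chosen after seeing the data, the counts were 1, 0, 2, 3 and 4, and 8 over subtypes.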

Other observations

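Several genes of the wider pathway that are not GABA or glycine receptor subunits were highest outside neurons or in a single neuron class, as a description with no test. Slc6a9, which encodes the glycine transporter GlyT1, was at 41.0 and 44.8 CPM in the WT libraries and 51.6 and 54.0 CPM in the HET libraries of oligodendrocyte-like nuclei, above every library of every other class, where it reached at most 23.4 CPM. Plcl1, which encodes a protein involved in trafficking of GABA-A receptors, was at 4011 ± 624 CPM (SD, n = 4) in the same nuclei and at 1347 ± 200 CPM in microglia-like nuclei. Kctd12, which encodes an auxiliary subunit of GABA-B receptors, was at 114 and 129 CPM in the WT libraries and 170.2 and 174 CPM in the HET libraries of microglia-like nuclei, and no library of another class exceeded 104 CPM. Kctd8, of the same family, was at 705 ± 51.6 CPM in Sst-like neurons, where each library was above the highest value elsewhere of 441 CPM.

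A group of 278 nuclei, 247 of them from the first WT library, stayed without a class because 1 library held more than 80% of it. Within it, a subcluster of 15 nuclei, all from that library, held Glra1 at 366 CPM with an exact Poisson 95% interval of 282 to 469 CPM and Slc6a5, which encodes the glycine transporter GlyT2 of glycine-releasing neurons, at 419 CPM with an interval of 328 to 527 CPM. Slc32a1 was at 75.6 CPM there, with an interval of 40.3 to 129 CPM, and no UMI of Slc17a6 was counted, which allows up to 21.5 CPM. A subcluster of 23 nuclei held Glra1 at 318 CPM with Slc6a5 and Gad2 each at 98.8 CPM. Another of 35 nuclei held Glra1 at 228 CPM together with Slc17a6, the vesicular glutamate transporter of subcortical neurons, at 203 CPM. These levels of Glra1 were above that of every class, but they came from 1 mouse in the main and enter no comparison. In the remaining subclusters, of 134 and 71 nuclei, Glra1 was at 24.1 and 24.5 CPM.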
